A study of Rattus norvegicus with 35 samples.

Results

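The data described here are the RNA levels of 5 genes taken as granule cell genes of the dentate gyrus, in the hippocampus of female rats. They are Prox1, Dsp, Pdzd2, C1ql2 and Calb1. The 5 genes were taken by name from the table of unnormalized counts, which lists 15059 genes, and all 5 were among the 14411 genes with enough counts to be tested. They were put together because levels of Prox1 and Dsp were lower in sham-operated than in vehicle-treated rats, that is, they were chosen by these sham and vehicle values, which are therefore given for all 5 as a description with no test. Each of 35 libraries is bulk poly(A) RNA from the hippocampus of a Sprague Dawley rat, in 7 groups of 5. Surgery was done at an age of 6 months, and daily intraperitoneal treatment began after a washout of 2 weeks and lasted until collection at 7 days. Sham rats kept their ovaries, while the rats of the other 6 groups were ovariectomised. Of these, 1 group received vehicle, and the others received estradiol at 0.16 mg/kg, the receptor modulators tamoxifen at 3.23 mg/kg or raloxifene at 9.68 mg/kg, or the aromatase inhibitors exemestane at 0.16 mg/kg or anastrozole at 4.03 mg/kg, doses as the labels state them. The RNA is that of hippocampal tissue. Fewer granule cells, less RNA per granule cell and RNA of other cells in the dissection therefore cannot be told apart.

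Granule cells are the principal neurons of the dentate gyrus, the entry station of the hippocampus. They receive cortical input and send mossy fibres to CA3 pyramidal neurons, and new ones are added in adult rodents. Prox1 encodes a homeobox transcription factor that sets and keeps granule cell identity, shown in mice. C1ql2 encodes a secreted C1q-like protein that mossy fibres release and that clusters kainate receptors at their synapses in mice. Calb1 encodes calbindin, a calcium buffer of mature granule cells that CA1 pyramidal neurons and some interneurons also hold. Dsp encodes desmoplakin, which ties desmosomes to intermediate filaments in epithelia and is also made by granule cells. Pdzd2 encodes a scaffold protein with several PDZ domains.

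The drugs of the study act through estrogen receptors or on the enzyme that makes estrogen, so the promoters of the genes were searched for the letters of the estrogen response element and of common promoter motifs. The RefSeq promoter table of build GRCr8 holds 3 of the 5 genes, each as 300 bases, 250 before and 50 after the gene's start. They are printed 5′ to 3′ on the strand of the gene, and capitals mark a match to a GC box (GGGCGG, either strand) or to an E-box (CANNTG). Dsp lies on the minus strand at chr17:26877072-26877371, Pdzd2 on the minus strand at chr2:63497429-63497728 and C1ql2 on the plus strand at chr13:34023652-34023951.
Dsp promoter: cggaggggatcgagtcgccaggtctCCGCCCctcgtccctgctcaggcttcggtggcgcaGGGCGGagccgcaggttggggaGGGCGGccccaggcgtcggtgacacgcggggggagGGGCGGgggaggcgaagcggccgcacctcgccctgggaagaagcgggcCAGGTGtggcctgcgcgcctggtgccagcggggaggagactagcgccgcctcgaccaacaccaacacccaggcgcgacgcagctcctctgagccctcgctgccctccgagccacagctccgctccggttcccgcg
Pdzd2 promoter: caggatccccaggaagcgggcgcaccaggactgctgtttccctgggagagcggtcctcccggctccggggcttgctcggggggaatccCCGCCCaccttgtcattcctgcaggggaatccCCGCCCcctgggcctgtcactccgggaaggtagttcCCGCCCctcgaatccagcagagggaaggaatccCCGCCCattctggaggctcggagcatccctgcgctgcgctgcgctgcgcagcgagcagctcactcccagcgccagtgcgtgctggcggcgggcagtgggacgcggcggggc
C1ql2 promoter: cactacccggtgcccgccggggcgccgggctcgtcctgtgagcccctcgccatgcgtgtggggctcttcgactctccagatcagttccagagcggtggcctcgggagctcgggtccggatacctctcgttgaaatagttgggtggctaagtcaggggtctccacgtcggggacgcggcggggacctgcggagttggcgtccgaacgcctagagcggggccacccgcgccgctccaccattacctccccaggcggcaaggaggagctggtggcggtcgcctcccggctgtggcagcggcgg

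The full estrogen response element (GGTCANNNTGACC) and its core repeat (GGTCA) were absent from these letters on both strands in all 3 windows. Among 33469 rat promoters of the same length, 0.0269% held the full element and 40.5% the core repeat. The Dsp window held 4 GC boxes and 1 E-box, the Pdzd2 window 4 GC boxes, and the C1ql2 window neither motif, and no match overlapped another. A GC box was in 33.1% and an E-box in 72.1% of all these promoters. The content of G and C was 75.0% for Dsp, 70.7% for Pdzd2 and 70.3% for C1ql2, against a mean of 52.7%.

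Libraries held 5.58 to 12.09 M counts, and levels are given as CPM, counts scaled to a common library total after TMM adjustment. The ratio of the 2 deposited tables split the libraries into 2 classes, 20 in class A and 15 in class B. No sample label gives this split, and its origin was not tested. All sham and estradiol libraries were class A and all raloxifene libraries class B; class B also held vehicle 4, tamoxifen 3, 4 and 5, exemestane 1 to 4, and anastrozole 3 and 4. With group in the model, 51.9% of all genes differed between the classes at an adjusted p under 0.05 (edgeR), so class and drug cannot be told apart for raloxifene and only in part for the other groups. Sham 1 stood apart, with a summed level of 413 CPM over the thalamus and habenula list against 134 to 182 CPM in the other 34 libraries, and 583 CPM over the CA1 list against 1010 to 1310 CPM. Choroid plexus RNA was uneven, with a summed level over that list of 1250 to 4140 CPM in 15 libraries and 66.4 to 196 CPM in the other 20.

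Prox1, the identity factor, stood at 70.2, 84.5, 104, 137 and 89.6 CPM in the 5 sham libraries and at 111, 103, 121, 139 and 137 CPM in the 5 vehicle libraries. The groups overlapped through sham 3 and 4, and the lowest value of all 35 libraries was that of sham 1. The mean was 97.2 ± 25.5 CPM in sham and 122 ± 15.7 CPM in vehicle (SD, n = 5 each), a difference of -0.33 on the log2 scale that was -0.23 without sham 1. In the same fit edgeR called 0 of the 14411 genes between sham and vehicle (0%), with 981 at an unadjusted p under 0.05. The 4 vehicle libraries of class A, the class of all sham libraries, had a mean of 118 CPM.

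Dsp, the desmosome linker, stood at 10.4, 11.8, 14.2, 10.2 and 4.30 CPM in sham and at 17.1, 10.6, 17.5, 21.5 and 10.2 CPM in vehicle. The lowest value was that of sham 5, and the groups overlapped between 10.2 and 14.2 CPM. Means were 10.2 ± 3.65 CPM in sham and 15.4 ± 4.86 CPM in vehicle (SD, n = 5 each), a log2 difference of -0.59, and -0.60 without sham 1. The highest vehicle value was that of vehicle 4, the class B library of the group, and the class A vehicle libraries had a mean of 13.8 CPM.

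The other 3 genes did not share that pattern in full. C1ql2, the synaptic organiser, stood at 21, 32.1, 34.8, 43.8 and 32.4 CPM in sham and at 45.6, 37.4, 43.2, 35.9 and 45.4 CPM in vehicle. As for Prox1, sham 1 was the lowest and sham 4 the highest of the sham libraries, and the groups overlapped through sham 4. Means were 32.8 ± 8.17 and 41.5 ± 4.55 CPM (SD, n = 5 each), a log2 difference of -0.34 that was -0.21 without sham 1. Pdzd2 stood at 95.2, 108, 105, 99.0 and 107 CPM in sham and at 95.7, 89.2, 92.7, 77.8 and 96.4 CPM in vehicle. Here sham had the higher mean, 103 ± 5.32 against 90.4 ± 7.56 CPM, and only sham 1 fell within the range of vehicle. Calb1, the calcium buffer, stood at 38.3, 63.7, 49.1, 54.5 and 69.1 CPM in sham and at 60.6, 52.2, 42.5, 61.4 and 52.8 CPM in vehicle. The sham values of Calb1 spanned those of vehicle, with means of 55.0 ± 12.1 and 53.9 ± 7.66 CPM.

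**Figure D1:**
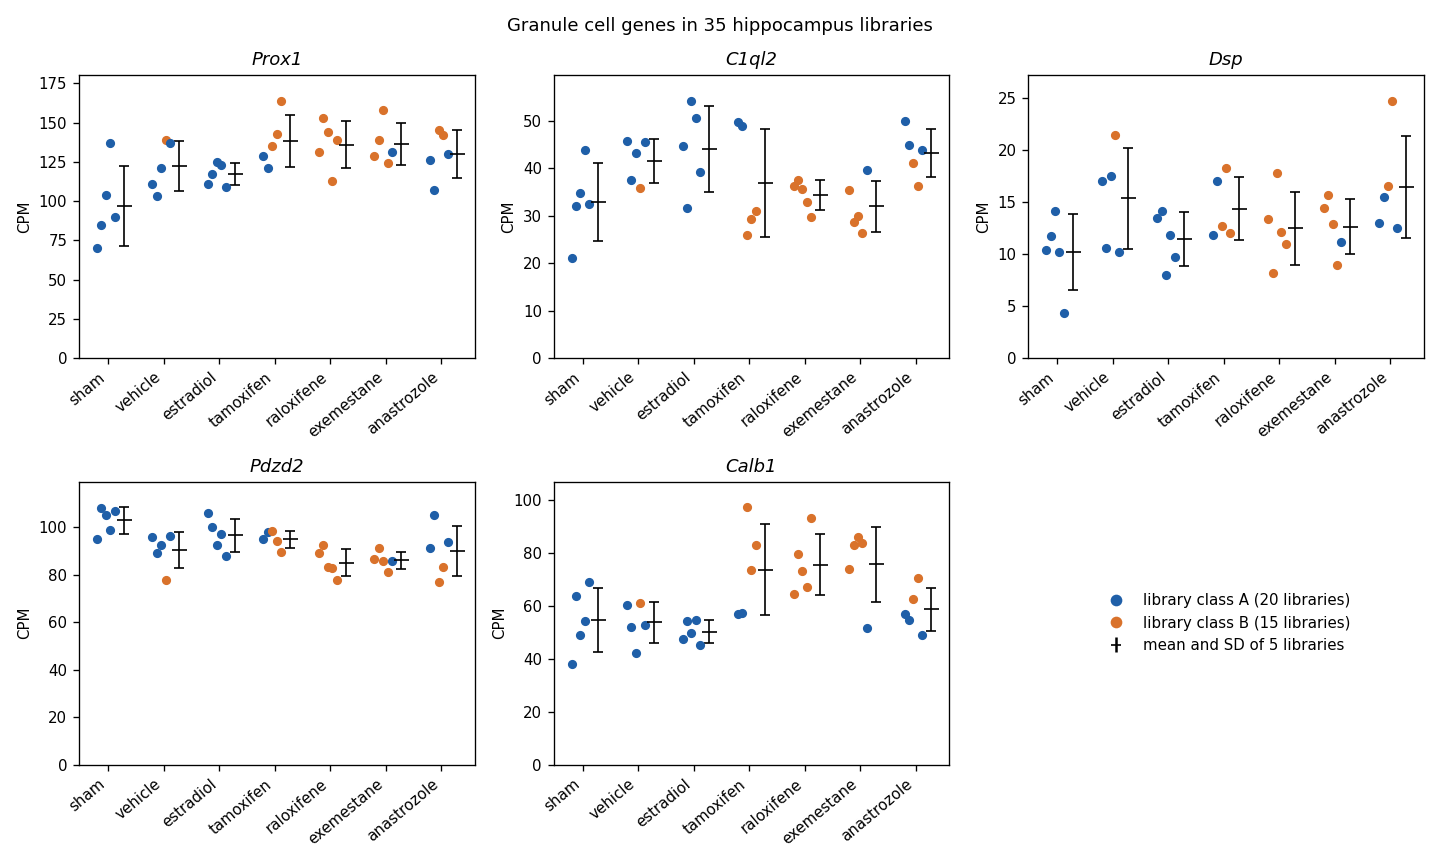
Level of each gene in CPM (linear axes from 0) in the 35 libraries by group; points are libraries, blue for class A and orange for class B, and bars are the mean and SD of 5 libraries. Calb1 lay between 38.3 and 69.1 CPM in class A libraries and between 61.4 and 97.4 CPM in class B libraries, while the sham values of Prox1 and Dsp reached down to 70.2 and 4.30 CPM.

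Across the 7 groups the mean of Prox1 was lowest in sham, followed by estradiol (117 ± 7.10 CPM), vehicle, anastrozole (130 ± 15.3), raloxifene (136 ± 15.1), exemestane (136 ± 13.4) and tamoxifen (139 ± 16.3). Of the neighbours in that order only sham and estradiol differed by more than their pooled SD, by 19.8 CPM against 18.7 CPM. The Prox1 values were 111, 117, 125, 123 and 109 CPM in estradiol, 129, 121, 135, 143 and 164 CPM in tamoxifen, and 131, 153, 144, 113 and 139 CPM in raloxifene. They were 129, 139, 158, 124 and 131 CPM in exemestane and 126, 107, 145, 142 and 130 CPM in anastrozole. Each of these groups overlapped with vehicle. Over the 7 comparisons with a test, the log2 fold changes of Prox1 ran from -0.06 to 0.19 with standard errors of 0.119 to 0.120, and the lowest adjusted p was 0.331 (edgeR). Comparisons with vehicle share its 5 libraries, which the choice of the genes also used. In the contrast of the 5 treated ovariectomised groups, whose values that choice did not use, Prox1 gave an adjusted p of 0.411 (edgeR). That fit held all 35 libraries, sham and vehicle included, for its estimate of spread. A fit of those 5 groups alone gave 0.166 (edgeR).

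Dsp had the fewest counts of the 5, 49 to 242 per library, so that counting error alone was 14.3% at the lowest library. Its means were lowest in sham, followed by estradiol (11.5 ± 2.57 CPM), raloxifene (12.5 ± 3.53), exemestane (12.7 ± 2.68), tamoxifen (14.4 ± 3.05), vehicle and anastrozole (16.5 ± 4.96). No neighbours in that order differed by more than their pooled SD. Libraries ran from 8.03 to 14.2 CPM in estradiol, 11.9 to 18.3 CPM in tamoxifen, 8.15 to 17.8 CPM in raloxifene, 8.95 to 15.7 CPM in exemestane and 12.5 to 24.8 CPM in anastrozole. All of these ranges overlapped that of vehicle. The log2 fold changes ran from -0.42 ± 0.252 for estradiol against vehicle to 0.19 ± 0.248 for tamoxifen against raloxifene, with adjusted p values of 0.306 or more (edgeR). The 95% interval of estradiol against vehicle was -0.93 to 0.10. The comparisons of Dsp with vehicle reuse vehicle values that chose the gene, so they are not independent of that choice.

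Dsp went with choroid plexus RNA in these libraries. After group and class means were removed, its log2 CPM over 35 libraries had an r above 0.4 with 9 of 9 choroid plexus genes, among them Ttr, the transthyretin gene, with a median r of 0.58. That median was 0.58 without sham 1 and 0.56 without the sham group. An r above 0.4 with Dsp was found for 4.82% of all genes without sham 1. In an edgeR fit with group and the mean log2 level of that list, chosen after the data were seen, Dsp rose by 0.0765 ± 0.0200 log2 units per log2 unit of the list (adjusted p = 0.0142), 1 of 738 genes called (5.12%). Prox1, Pdzd2, C1ql2 and Calb1 had adjusted p values of 0.394, 0.804, 0.536 and 0.566 for that term (edgeR). The fit also held the sham and vehicle libraries, whose Dsp values chose the gene, and the term was not tested without them. The 15 libraries with much choroid plexus RNA had 10.4 to 24.8 CPM of Dsp, with a median of 14.5 CPM, and the other 20 had 4.30 to 17.8 CPM, with a median of 11.6 CPM. Sham held 3 of these 15 libraries, at 10.4, 11.8 and 14.2 CPM of Dsp, and vehicle held 2, at 17.5 and 21.5 CPM. In the libraries with little choroid plexus RNA, Dsp was 10.2 and 4.30 CPM in sham and 17.1, 10.6 and 10.2 CPM in vehicle. With that term the log2 fold change of Dsp against vehicle went from -0.42 to -0.26 for estradiol, from -0.10 to -0.04 for tamoxifen, from -0.29 to -0.21 for raloxifene, from -0.27 to -0.21 for exemestane and from 0.11 to 0.08 for anastrozole. It went from 0.19 to 0.17 for tamoxifen against raloxifene and from -0.38 to -0.29 for exemestane against anastrozole, and none of the 7 was called with it (adjusted p of 0.334 or more, edgeR). The part of choroid plexus RNA in the sham and vehicle values of Dsp was not tested.

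**Figure D2:**
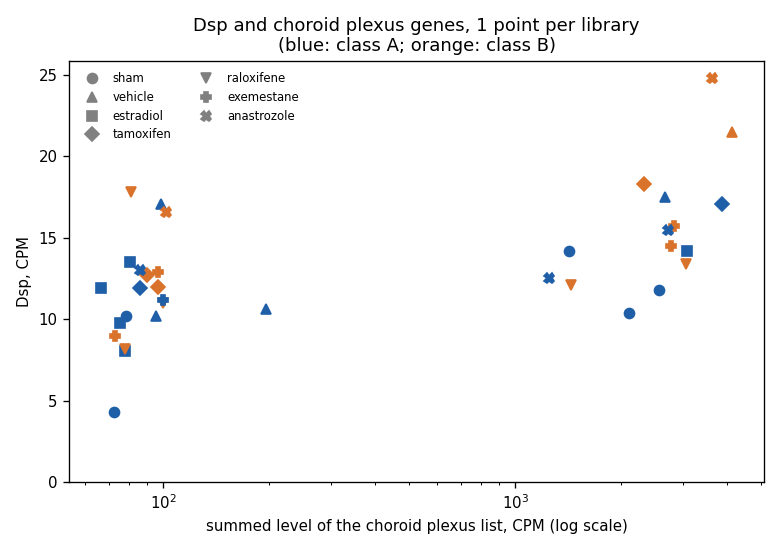
Dsp in CPM (linear axis from 0) against the summed level of 9 choroid plexus genes in CPM (log axis); each point is a library, its shape gives the group and its colour the library class. The 15 libraries at 1250 CPM or more of the list reach 24.8 CPM of Dsp, and the other 20 stay at or below 17.8 CPM.

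Prox1 and C1ql2 varied from library to library together with other granule cell genes, while Dsp, Pdzd2 and Calb1 had median correlations near 0 with them. The list of other granule cell genes had 24 names, of which 20 were in the table and 19 were tested. With group and class means removed, Prox1 had a median r of 0.58 with the 19 and an r above 0.4 with 14 of them (73.7%), and C1ql2 had a median of 0.54 with 14 (73.7%). The medians were -0.07 for Dsp, with 2 genes above 0.4, -0.02 for Pdzd2, with none, and -0.02 for Calb1, with 2. Among the 19, Sema5a, a guidance cue, had an r of 0.84 with Prox1 and 0.69 with C1ql2. Trpc6, a cation channel gene, had 0.78 and 0.66, Bcl11b, a zinc finger factor, 0.73 and 0.68, and Neurod2, a neuronal bHLH factor, 0.68 and 0.71. Not every gene of the list followed: Slc4a4, a bicarbonate transporter that astrocytes also make, had an r of -0.35 with Prox1 and -0.41 with C1ql2. Npnt had -0.18 and 0.06, but its group means were only 1.1 to 2.4 CPM, where counting error is large.

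Leaving out sham 1 lowered these values. Medians over the granule list were then 0.45 for Prox1 and 0.47 for C1ql2, with 13 of 19 genes above 0.4 for each (68.4%), against 4.26% and 4.12% of all genes. Without the whole sham group they were 0.41, with 11 genes, and 0.44, with 12 genes. The CA1 list behaved otherwise, since its median r with Prox1 went from 0.47 to 0.16 and with C1ql2 from 0.41 to -0.15 when sham 1 was left out. These correlations describe the libraries, which also share depth and dissection, and they carry no test.

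**Figure D3:**
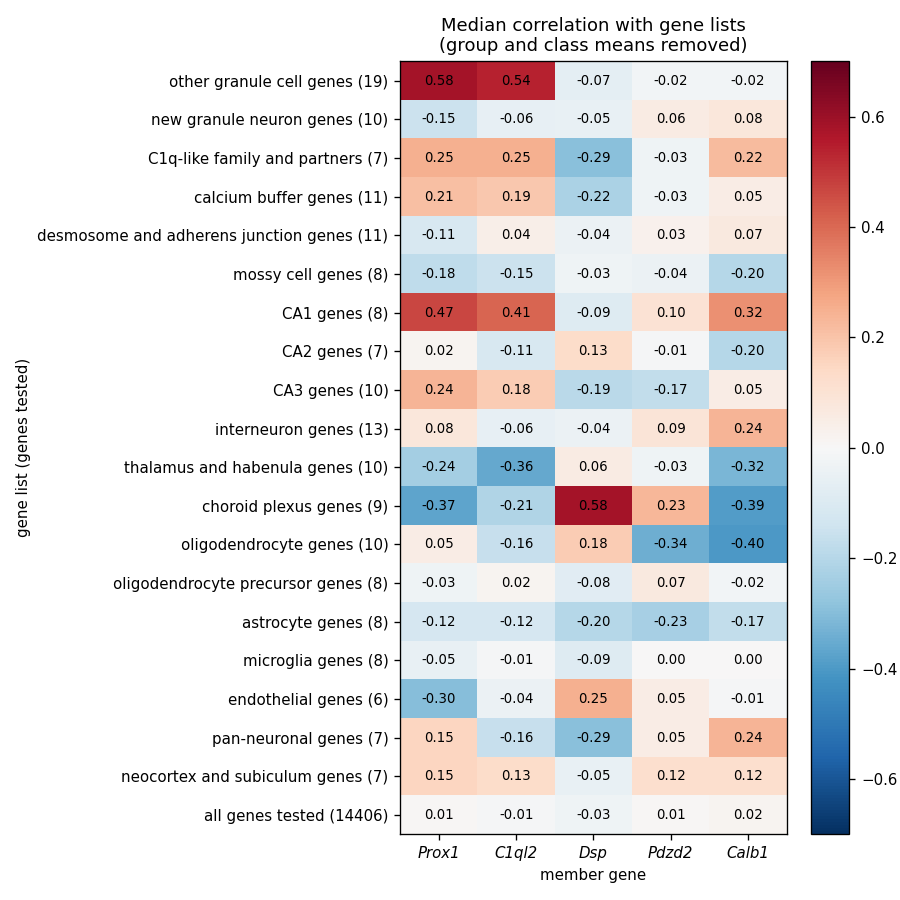
Median Pearson r of log2 CPM over 35 libraries, with group and class means removed, between each of the 5 genes (columns) and the tested genes of 19 lists and of all genes (rows; number of genes in brackets); red is positive and blue negative. The granule cell list stands at 0.58 for Prox1 and 0.54 for C1ql2 and at -0.07 to -0.02 for the other 3 genes, and the choroid plexus list stands at 0.58 for Dsp.

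The 5 genes were next compared with each other within each library class, as 10 pairs in 2 classes, with permutation tests of 100000 resamples adjusted over the 20. Class A holds all 5 sham and 4 of the 5 vehicle libraries, whose Prox1 and Dsp values chose the genes. Pairs with Prox1 or Dsp are therefore described there with no test, although the adjustment over the 20 counted them. The r of Prox1 and C1ql2 was 0.82 over the 20 libraries of class A and their rho 0.60. Leaving out sham 1 and sham 2, the libraries farthest in Prox1, gave r = 0.58, and removing group means gave 0.74. Without the sham and vehicle libraries, a choice made after seeing the data, r was 0.30 over 11 libraries (permutation p = 0.374, adjusted p = 0.712) and rho was 0.20 (permutation p = 0.558, adjusted p = 0.846), so the value of 0.82 rests on the sham and vehicle libraries. In class B, with 15 libraries and no sham library, r was 0.13 (permutation p = 0.659).

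C1ql2 and Calb1 went in opposite directions in class B, with r = -0.77 over 15 libraries (permutation p = 0.00103, adjusted p = 0.0103) and rho = -0.75 (p = 0.00174, adjusted p = 0.0348). Tamoxifen 3 had the most Calb1, at 97.4 CPM, and the least C1ql2 of class B, at 26 CPM. Without tamoxifen 3 and anastrozole 3, the libraries farthest in C1ql2, r was -0.64 (permutation p = 0.0201, adjusted p = 0.201), and with group means removed it was -0.62 (adjusted p = 0.186, permutation), so the adjusted call was lost in both. Without the vehicle library of class B r was -0.77 over 14 libraries (permutation p = 0.00165, adjusted p = 0.033). Over these 14 rho was -0.76 (permutation p = 0.00256, adjusted p = 0.0512), not past the threshold, and r was -0.61 when tamoxifen 3 and anastrozole 3 were also left out. Class A gave r = 0.26 (permutation p = 0.265), which turned to -0.22 without sham 1 and estradiol 2. The other 16 values of r lay between -0.53 and 0.42. Those with Prox1 or Dsp in class A are a description, and the rest had adjusted p values of 0.300 or more (permutation).

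**Figure D4:**
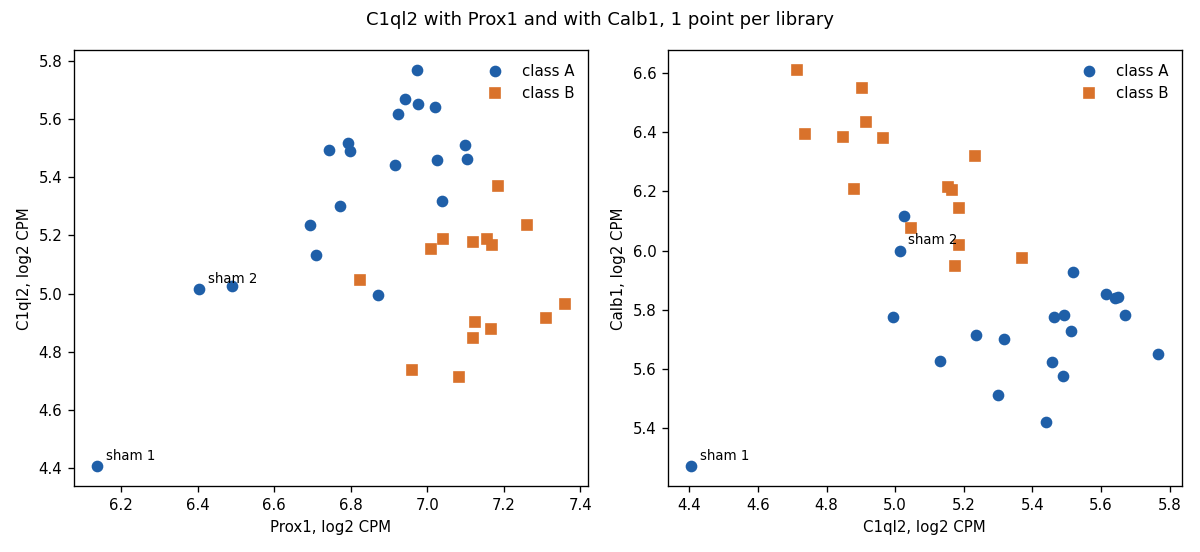
C1ql2 against Prox1 (left) and Calb1 against C1ql2 (right), in log2 CPM, with 1 point per library, blue circles for the 20 of class A and orange squares for the 15 of class B. In the left panel r is 0.82 over class A, with sham 1 at the lower end, and 0.30 without its sham and vehicle libraries, and class B libraries fall in the right panel (r = -0.77).

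Calb1 was the only one of the 5 genes called in any comparison with a test, and it was higher after raloxifene and after exemestane than in vehicle. Raloxifene libraries stood at 64.5, 79.7, 73.5, 67.2 and 93.5 CPM, all above the highest vehicle library, 61.4 CPM. The mean was 75.7 ± 11.6 CPM (SD, n = 5), and the log2 fold change against vehicle was 0.49 ± 0.152 (SE, adjusted p = 0.0223, edgeR); 24.8% of all genes were called in this comparison. Exemestane libraries stood at 74.1, 83.3, 86.2, 83.9 and 51.8 CPM, 4 of 5 above all vehicle libraries, and the low one, exemestane 5, was the class A library of the group. The mean was 75.9 ± 14.2 CPM, and the log2 fold change was 0.49 ± 0.152 (adjusted p = 0.0478, edgeR), where 6.51% of all genes were called. Leaving out 1 library at a time kept the raloxifene call in 8 of 10 fits, without it when raloxifene 5 (adjusted p = 0.0703) or vehicle 3 (0.0673) was left out. The exemestane call held in 2 of 10 such fits, those without exemestane 5 or vehicle 4.

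Library class moved with Calb1 in the same direction. With group in the model, Calb1 was higher by 0.44 ± 0.097 log2 units in class B than in class A (adjusted p = 0.000314, edgeR). The median over class A libraries was 53.6 CPM, with a range of 38.3 to 69.1, and that over class B libraries 74.1 CPM, with a range of 61.4 to 97.4. With class as a term, the log2 fold change was 0.14 ± 0.144 for raloxifene (adjusted p = 0.970, edgeR) and 0.21 ± 0.136 for exemestane (adjusted p = 0.800, edgeR), and both calls were lost. The share of all genes called in these comparisons with that term is not given here. Vehicle 4, the sole class B vehicle library, had 61.4 CPM, below all 5 raloxifene libraries and the 4 class B exemestane libraries, and exemestane 5, in class A, had 51.8 CPM against 42.5 to 60.6 CPM in the class A vehicle libraries.

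The other drugs gave no call for Calb1. Tamoxifen libraries stood at 57.0 and 57.6 CPM in class A and at 97.4, 73.6 and 83.2 CPM in class B, with a mean of 73.8 ± 17.3 CPM. Against vehicle that was a log2 fold change of 0.45 ± 0.153 (adjusted p = 0.197, edgeR), with 5 of 5 libraries above the vehicle median, and 0.14 in the class A libraries alone. No gene was called there by edgeR (0%), 2365 had an unadjusted p under 0.05, and DESeq2 called 83, none of the 5, although without tamoxifen 2 Calb1 had an adjusted p of 0.0497. Tamoxifen 2 is a class A library, and the share of all genes called without it is not given. Estradiol had the lowest mean of the 7 groups, 50.4 ± 4.19 CPM, from libraries at 47.5, 54.5, 50, 54.8 and 45.4 CPM, and a log2 fold change of -0.09 ± 0.155 with a 95% interval of -0.41 to 0.22. In that comparison 0.00694% of genes were called, 1 gene, with 16 by DESeq2. Anastrozole stood at 57.2, 54.7, 62.7, 70.5 and 49.1 CPM, a log2 fold change of 0.13 ± 0.152, where edgeR called 0% of genes and DESeq2 2 genes, and 414 had an unadjusted p under 0.05. In the order of the group means only anastrozole and tamoxifen, as neighbours, differed by more than their pooled SD, by 14.9 CPM against 13.5 CPM.

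Contrasts that leave out both sham and vehicle compare none of the values that chose the genes, but those libraries still entered the fit's estimate of spread. Among the 5 treated ovariectomised groups Calb1 differed (F = 5.79, adjusted p = 0.00783, edgeR), 1 of 5 genes, in a test that called 33.5% of all genes. With class as a term its adjusted p was 0.809. The adjusted p was 0.0903 for C1ql2, 0.101 for Pdzd2 and 0.391 for Dsp. The call of Calb1 held in all 25 fits that leave out 1 library (adjusted p 0.00121 to 0.0263), and C1ql2 was also called without estradiol 2, tamoxifen 1 or exemestane 5.

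Between the drugs of a class, which were given at different doses, edgeR called no gene. Tamoxifen against raloxifene gave 0% by edgeR, while 1212 genes had an unadjusted p under 0.05 and DESeq2 called 7, none of the 5. Calb1 differed by -0.04 on the log2 scale (95% interval -0.35 to 0.27) and Prox1 by 0.03 (-0.21 to 0.27). Pdzd2 was at 95.0, 97.9, 98.5, 94.0 and 89.5 CPM in tamoxifen and at 89.2, 92.5, 83.1, 82.9 and 78.0 CPM in raloxifene. All 5 tamoxifen libraries were above the raloxifene median, and the log2 difference of Pdzd2 was 0.16 (0.02 to 0.30, adjusted p = 0.584, edgeR). Exemestane against anastrozole also gave 0% by edgeR, while 3900 genes had an unadjusted p under 0.05. DESeq2 called 844, none of the 5, and gave no adjusted p for Dsp there. Calb1 differed by 0.36 (0.06 to 0.67, adjusted p = 0.128) and Dsp by -0.38 (-0.88 to 0.11, adjusted p = 0.306). Without exemestane 5 Calb1 had an adjusted p of 0.021, and without anastrozole 4 of 0.0491 (edgeR). Exemestane 5 is a class A and anastrozole 4 a class B library, so both fits leave the groups less alike in class. The share of all genes called in those fits is not given.

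C1ql2 stood at 35.3, 28.6, 29.9, 26.4 and 39.6 CPM in exemestane and at 50, 44.8, 41.1, 36.2 and 43.7 CPM in anastrozole. All 5 exemestane libraries were below the anastrozole median, and the ranges overlapped only through exemestane 5 and anastrozole 4. The log2 difference was -0.43 (95% interval -0.77 to -0.09, adjusted p = 0.112, edgeR), and without exemestane 5 it was -0.52 (adjusted p = 0.0342). Against vehicle, exemestane gave -0.37 ± 0.168 (adjusted p = 0.127) and raloxifene, at 36.2, 37.4, 35.6, 32.8 and 29.7 CPM, gave -0.27 ± 0.167 (adjusted p = 0.221). In the model with class, exemestane gave -0.26 against anastrozole (adjusted p = 0.463, edgeR) and -0.12 against vehicle (adjusted p = 0.929), and raloxifene turned to 0.08 (adjusted p = 0.992). Exemestane 5 is the class A library of its group. C1ql2 was lower in class B, with a log2 difference from class A of -0.43 ± 0.108 (adjusted p = 0.0011, edgeR). Within the tamoxifen group it was at 49.6 and 48.8 CPM in the class A libraries and at 26, 29.2 and 31 CPM in the class B libraries. Estradiol, with class A libraries alone, had the highest mean, 44.1 ± 9.02 CPM, from 31.6 to 54.2 CPM, and no neighbours in the order of the groups differed by more than their pooled SD.

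Pdzd2 varied least of the 5 genes, from 77.1 to 108 CPM over all libraries. Its log2 fold changes lay between -0.09 and 0.16 in the 7 comparisons, with standard errors of 0.0690 to 0.0695 and adjusted p values of 0.362 or more. Estradiol libraries stood at 106, 100, 92.5, 97.0 and 87.8 CPM, exemestane libraries at 86.8, 91.1, 85.7, 81.2 and 85.7 CPM and anastrozole libraries at 91.4, 105, 77.1, 83.1 and 93.6 CPM. Exemestane held the narrowest range of these, and all 3 groups overlapped with vehicle. Pdzd2 was lower in class B, with a log2 difference from class A of -0.15 ± 0.0465 (adjusted p = 0.0084, edgeR). The class difference was 0.21 ± 0.0904 for Prox1 (adjusted p = 0.0551) and 0.36 ± 0.186 for Dsp (adjusted p = 0.104), neither past the threshold.

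**Figure D5:**
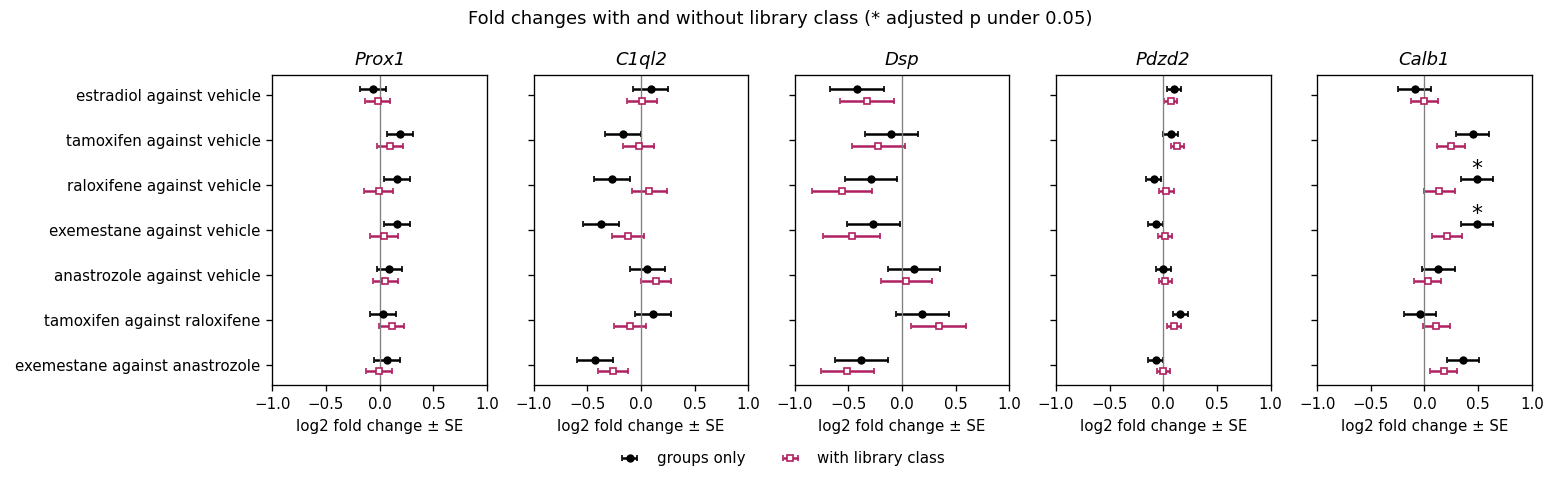
Log2 fold changes with standard errors of the 5 genes (panels) in the 7 comparisons (rows), with groups alone in the model (black circles) and with library class added (magenta squares); stars mark an adjusted p under 0.05. Calb1 has the 2 stars, at 0.49 for raloxifene and for exemestane, and its values with class are 0.14 and 0.21.

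The other genes of the granule cell list were read beside the 5, as counts. Against vehicle, 0 of the 19 were called with estradiol, tamoxifen or anastrozole. With raloxifene 4 fell and 0 rose, when 11.4% of all genes fell and 13.4% rose, and the median log2 fold change of the list was -0.07 against -0.02 over all genes. The 4 were Maml2, a Notch coactivator (28.1 ± 2.56 against 35.2 ± 2.46 CPM, log2 fold change -0.32, adjusted p = 0.0273, edgeR), Pitpnm2 (-0.37), Plk5 (-0.47) and Neurod2 (-0.43). With exemestane 1 rose, Zbtb20, a zinc finger factor of hippocampal neurons (260 ± 16.5 against 215 ± 17.5 CPM, log2 fold change 0.27, adjusted p = 0.0394, edgeR), when 4.06% of all genes rose. With class as a term 0 of the 19 were called in any of the 7 comparisons, and the share of all genes called in that model is not given here. Of these genes, 3 were higher and 8 lower in class B than in class A, among the 51.9% of all genes that differed. The summed level of the list ran from 1550 CPM in sham 1 to 2140 CPM in vehicle 5.

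Genes of newly made granule neurons, 10 tested, had 2 that rose with raloxifene, when 13.4% of all genes rose, and 2 with exemestane, when 4.06% did. Dcx, the doublecortin gene of migrating neurons, was at 54.1 ± 4.56 CPM with raloxifene, 59.6 ± 11.1 CPM with exemestane and 40.3 ± 3.49 CPM in vehicle, log2 fold changes of 0.42 (adjusted p = 0.0217) and 0.56 (adjusted p = 0.0394, edgeR). With class these were 0.07 and 0.28 and were not called. The other call in each, Stmn2, a tubulin-binding protein gene of growing neurites, had 0.17 and 0.18. Stmn2 is also in the pan-neuronal list. Medians of the list were -0.15 for raloxifene and -0.07 for exemestane, opposite in sign to these genes.

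Partners of the proteins were read the same way, against 13.4% of all genes higher and 11.4% lower with raloxifene and 4.06% higher and 2.45% lower with exemestane. Of 11 tested desmosome and adherens junction genes other than Dsp, raloxifene had 2 that fell, Jup, plakoglobin (-0.38, adjusted p = 0.0177, edgeR), and Ctnnb1, beta-catenin (-0.23, adjusted p = 0.0192). With exemestane Jup fell (-0.37, adjusted p = 0.0456) and Perp, a desmosome membrane protein gene, rose (0.44, adjusted p = 0.0474). Of 7 tested genes of the C1q-like family and its partners, 1 rose with raloxifene, Grik2, a kainate receptor subunit gene (0.25, adjusted p = 0.0346). Of 11 tested calcium buffer genes other than Calb1, Cabp1 was the one that fell, with raloxifene (-0.41, adjusted p = 0.0211) and with exemestane (-0.47, adjusted p = 0.0403).

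The 14 lists of other cell types and regions held calls as well, to be read against the same shares of all genes. With raloxifene, 4 of 10 oligodendrocyte genes were lower, among them Mbp, the myelin basic protein gene (-0.47), and 3 of 7 pan-neuronal genes were higher. Of 13 interneuron genes 3 were higher and 1 lower, with Gad1, which makes GABA, up by 0.23, and of 10 CA3 genes 1 was higher and 2 were lower. The other 10 lists had at most 1 call in each direction. With exemestane, 4 of 10 oligodendrocyte genes were lower, Mbp again among them (-0.50), as were 2 of 8 microglia genes, and the other 12 lists had at most 1 call in each direction. None of the 19 lists had a call in either comparison with class as a term, a model whose share of all genes called is not given here.

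The genes whose levels followed each of the 5 most closely were taken by the highest r over 35 libraries, group and class means removed, among 10583 genes with a symbol and a mean of at least 5 CPM. They were Epha7 (0.86), Sema5a (0.84) and Adra1d (0.80) for Prox1, and Fat4 (0.80), Crtc1 (0.79) and B3gat1 (0.79) for C1ql2. For Calb1 they were Sstr1 (0.83), Acvr2a (0.82) and Etv1 (0.76). Dsp had Mdm2 (0.76), Mia2 (0.69) and Gpx1 (0.69), and Pdzd2 had the lowest such values, with Ttc26 (0.69), Wwc3 (0.62) and Igf1r (0.62). Of these 15 genes, Sema5a was also in the granule cell list. All these r include sham 1, the library that stood apart, and were not taken without it. Among themselves the 5 genes had r = 0.60 for Prox1 and C1ql2 on this measure, -0.37 for Dsp and Calb1, 0.36 for Pdzd2 and Calb1, and values from -0.05 to 0.16 for the other pairs.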

How the data were processed

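The authors deposited expected counts per gene, whole numbers that Salmon gave per the submitters' processing notes, and a normalized signal made with DESeq2 per the same notes, in which each count has its own divisor, set per gene in every library. Stranded poly(A) libraries from RNA of quality above 7 were read as 100 bp pairs with a target of 30 M reads, per the labels' protocols. Genome build, annotation and versions are not given in the sources used here. Replicates are rats as far as the labels say, numbered in accession order, so p values measure the spread between these libraries.

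Expected counts were used as whole numbers in edgeR 4.0.16 (R 4.3.3) (TMM, filterByExpr with the 7 groups). All 35 libraries entered 1 robust quasi-likelihood fit; adjusted p is Benjamini-Hochberg over 14411 genes, with a threshold of 0.05. Standard errors came from the fold and its F statistic. Log2 CPM used a prior count of 2. Library class is the sign of the first component (72.3% of the variance, the second 1.69%) of the log ratio of the 2 tables over 14326 genes, each library centred on its median and each gene on its mean. DESeq2 1.42.0 and limma 3.58.1 served as alternatives. The 5 genes and the 19 lists were chosen with earlier results of these data known. Genes named beside the 5 are those called in a list, up to 4 by p, and the 3 of highest r for each of the 5; other list members, named to show the spread of r or for a cell type, were chosen after their values were seen. On simulated counts for exemestane against vehicle, with 14411 genes, the test recovered 64% of genes changed by 0.5 and 94% of those changed by 1 on the log2 scale. The simulation held no difference between library classes, and the changed genes were drawn from those of higher expected counts. These shares therefore do not apply to the real comparison, where the groups differ in class, or to genes of low counts. Every library column was used. The result of a gene in the calcium buffer list is not reported here.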

Additional observations from a re-analysis of the deposited data

How the results depend on the processing

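No paired analysis was possible because the library titles share no replicate numbers across groups. The tests called 1 of the 5 genes, Calb1, with raloxifene, with exemestane and among the 5 treated ovariectomised groups, and 0 in the other 5 comparisons. DESeq2 size factors, DESeq2's own test and the choroid plexus level as a term, chosen after seeing the data, left every count as it was. DESeq2's own test called 3963 genes with raloxifene and 1972 with exemestane, where edgeR called 3568 and 938. The shares called with the size factors or the choroid plexus term are not given. DESeq2 gave no adjusted p for Dsp in estradiol against vehicle or in exemestane against anastrozole. The exemestane count was 0 with no filter on low counts and 0 with the compared groups alone, where Calb1 had adjusted p values of 0.0501 and 0.0576; with the compared groups alone raloxifene had 2, C1ql2 being added (-0.277, adjusted p = 0.0204). With class as a term, and in the authors' normalized table with limma, the counts for raloxifene, exemestane and the 5 groups were all 0. The share of all genes called is given for neither setting. In the normalized table Calb1 was at 0.332 (adjusted p = 0.108, limma) with raloxifene and 0.363 (0.107) with exemestane, and at an adjusted p of 0.0803 among the groups. The cause was not tested.

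Directions turned only for values that the tests as designed did not call. With class as a term the log2 fold change against vehicle became -0.00532 for Prox1, 0.0334 for Pdzd2 and 0.0798 for C1ql2 with raloxifene, 0.0211 for Pdzd2 with exemestane and 0.0244 for Pdzd2 with anastrozole. It became -0.101 for C1ql2 and 0.114 for Calb1 in tamoxifen against raloxifene, and -0.00691 for Prox1 in exemestane against anastrozole. In class A libraries alone it was 0.0594 for Dsp and 0.199 for C1ql2 with tamoxifen and 0.0548 for Pdzd2 with anastrozole. In class B libraries alone, an alternative chosen after seeing the data, it was -0.26 for C1ql2 and 0.149 for Calb1 in tamoxifen against raloxifene, and -0.0687 for Prox1 and 0.101 for Pdzd2 in exemestane against anastrozole. The normalized table gave -0.0348 for C1ql2 with estradiol, and -0.0722 for C1ql2 and 0.0228 for Calb1 in tamoxifen against raloxifene. The r of C1ql2 and Calb1 in class A became -0.22 without the 2 libraries farthest from the median. Fits in a class alone could not be made for raloxifene or exemestane against vehicle or for the 5 groups.

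Leaving out 1 library at a time, the count of the 5 genes called ranged from 0 to 1 for raloxifene, exemestane and tamoxifen against vehicle, from 0 to 2 for exemestane against anastrozole and from 1 to 2 among the 5 groups, and was 0 in every such fit of the other 3 comparisons. The share of all genes called in these fits is not given. Folds that crossed 0 ranged from -0.206 to 0.0619 for Dsp with tamoxifen, -0.0801 to 0.276 for Dsp with anastrozole and -0.0609 to 0.0522 for Pdzd2 with anastrozole. In tamoxifen against raloxifene they ranged from -0.0429 to 0.0709 for Prox1, -0.0431 to 0.204 for C1ql2 and -0.158 to 0.0496 for Calb1, and in exemestane against anastrozole from -0.112 to 0.0014 for Pdzd2. Depth limits Dsp most, whose median library held 103 counts.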
